A study of Quercus robur with 165 samples.

Results

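Lateral roots of *Q. robur* seedlings whose long container taproots were classed as dying were compared with lateral roots of seedlings whose long container taproots were classed as active. The comparison holds 6 libraries, 3 dying and 3 active, of 165 in the series. All 6 were selected by their sample codes in Dataset 2, in which the container seedlings came from acorns stored from the lot of the year before. Both groups shared the species, the container, the root part and the length class (long), and the labels name no treatment for either. Vitality and length were scored on the taproot at harvest, and a dying taproot was typically one whose tip had met the container floor. Whether the lateral roots were themselves dying, how many seedlings entered a library and whether the taproot libraries came from the same seedlings are not given in the sources used here.

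Lateral roots arise from inner tissue of the parent root and carry an apical meristem of their own. In a container whose bottom is open to air, the taproot tip dries and stops growing, and lateral roots then make up more of the root system. Ethylene, auxin and gibberellin are among the hormones that set the growth of root tips. The ethylene pathway ends with the oxidation of aminocyclopropane carboxylate, auxin is carried from cell to cell by PIN efflux carriers, and bioactive gibberellins are made by a 3-beta-dioxygenase.

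Values were expected counts, the number of read pairs assigned to a gene, and TPM, which scales them by gene length and by library. Total expected counts ran between 31602884 and 31796077 in dying and between 27914401 and 32502427 in active lateral roots, over 35397 genes. The 10 most counted genes held 4.78% to 5.27% of the counts in dying lateral roots and 4.70% to 8.35% in active ones. The value of 8.35% was that of active replicate 2. A single gene held 0.528% to 0.908% of the counts in dying lateral roots, against 0.408%, 2.32% and 0.493% in active replicates 1, 2 and 3.

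The root part was checked with 20 lateral root genes and 20 taproot meristem genes, taken as the most different genes of these root parts in Dataset 1. The summed level of the lateral root genes was 645 to 678 TPM in dying and 556 to 594 TPM in active lateral roots, with 20 of 20 detected in every library. These 20 genes did not move together. In dying lateral roots 6 were higher and 5 were lower, with a median log2 fold change of 0.086. The summed level of the taproot meristem genes was 62.8 to 66.6 TPM in dying lateral roots, against 245 to 279 TPM in active lateral roots. Of the 19 that were tested, 15 were lower and 1 was higher in dying lateral roots, with a median log2 fold change of -1.42. The same sum was 1816 to 1854 TPM in dying and 921 to 948 TPM in active meristematic zones, and 4.14 to 80.1 TPM in the other lateral root groups of both datasets apart from long lateral roots of transplanted seedlings (16.5 to 349 TPM). The active lateral roots therefore stood apart from most lateral root groups in these genes, more so than the dying ones. The part of this difference in the results was not tested. In such bulk samples, fewer cells of a type and less RNA per cell cannot be told apart.

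The first question was how large the change was against the spread of the replicates. For each pair of libraries, the coefficient of variation (CV) that remained once counting noise was removed was computed on 5989 genes of middle to high expression (mean expected count of 1000 to 10000). It was 0.0862 to 0.102 (median 0.0996) over the 9 pairs of a dying and an active library. Within dying lateral roots it was 0.0202 to 0.0353, and within active ones it was 0.0222 to 0.0596, so that every pair between the classes was farther apart than every pair within a class. The median between the classes was 2.96 times the median within them (0.0337). The median was 0.0321 within dying and 0.0568 within active lateral roots, so that the ratio to the active replicates alone is smaller. In active lateral roots, replicates 2 and 3 lay close together (0.0222) and replicate 1 lay apart from both. Without active replicate 1 the ratio was 3.70, and without dying replicate 1 it was 2.17.

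**Figure D1:**
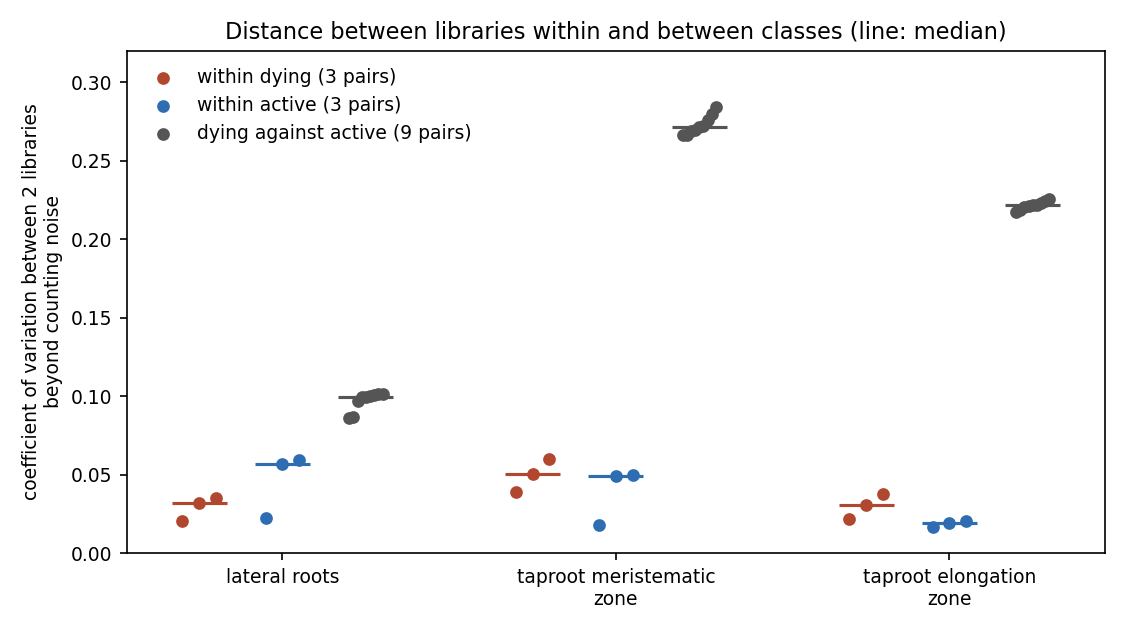
The CV that remained once counting noise was removed (vertical axis, no unit) is plotted for each pair of libraries within dying, within active and between both classes, in 3 root parts, with the median as a line. Pairs between the classes lie at 0.0862 to 0.102 in lateral roots, above all pairs within a class, and at 0.217 to 0.284 in the taproot zones.

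By the median distances, the change was smaller in lateral roots than in either taproot zone. The median CV between dying and active libraries was 0.0996 in lateral roots, 0.272 in meristematic zones and 0.222 in elongation zones. Its genes were chosen on lateral roots, and some may be weak in the taproot. The median CV within classes was 0.0337, 0.0495 and 0.0212 in the same order, and the ratio of between to within was 5.49 in meristematic zones and 10.5 in elongation zones. Measured on TPM, 5.25% to 7.42% (median 6.41%) of the transcript pool differed between a dying and an active lateral root library. Within the classes 2.05% to 5.30% differed, so that on this measure, which the abundant transcripts dominate, the ranges met. The median share was 17.4% in meristematic zones and 13.2% in elongation zones.

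The closeness of replicates differed among the groups of Dataset 2. Of the 28 groups other than these, 4 had a lower median CV among their own replicates than the dying lateral roots (0.0321), and 14 had a lower one than the active ones (0.0568). All 3 pairs of dying libraries and 1 of 3 pairs of active libraries had a CV under 0.05, called near-identical here. None was within counting noise, since the variance was at least 2.22 times that of counting alone. In 12 of the 28 groups the median was above 0.0996, up to 0.294, and 2 of the 5 other lateral root groups did so. The difference between dying and active lateral roots was therefore larger than the spread of their own replicates, and smaller than the spread among replicates of 12 other groups. Long lateral roots from the rhizotron were farther from the dying ones (median CV 0.130) than the active ones were, and medium lateral roots from containers were at a like distance (0.109, up to 0.234). Transplanted long lateral roots (0.275) and thick and dying transplanted ones (0.384) lay farthest from them.

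Expression was then tested gene by gene with edgeR's quasi-likelihood test and Benjamini-Hochberg adjustment over all genes tested. Of 23971 genes, 7304 (30.5%) passed an adjusted p of 0.05, with 3792 (15.8%) higher and 3512 (14.7%) lower in dying lateral roots. Most of these changes were small. The median absolute log2 fold change was 0.41 among genes that passed and 0.16 among all genes tested, and 63.0% of the genes that passed differed by less than 1.5-fold. A change of at least 2-fold was seen in 1557 of them (6.50% of all genes tested), 879 higher and 678 lower. At least 4-fold was reached by 504 genes and at least 8-fold by 232, of which 110 were higher and 122 were lower. Without the TMM scaling, 6914 genes passed, and the split moved to 4439 higher and 2475 lower. On log2(TPM + 1) with limma it was 3872 higher and 2091 lower, so that the balance of directions rests on the scaling.

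How many genes pass depends on whose spread is used. With the spread pooled over all 30 groups of Dataset 2 in a single fit, 1022 genes passed (580 higher, 442 lower), and 925 of these had passed the main test. When near-identical libraries were also merged, dying lateral roots were left with 1 unit and active ones with 2. Then 1 gene passed, which was lower in dying lateral roots and is not named in the files, and 708 had an unadjusted p under 0.05. The p-values of the main test therefore measure only the spread between these 6 samples, which the study numbered as biological replicates.

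Per gene, the median SD within a class was 0.11 on the log2 scale in lateral roots, and the median difference between the classes was 1.48 times the SD of the same gene. This ratio was 2.86 in meristematic zones and 2.89 in elongation zones. The genes with large folds in lateral roots were mostly weakly expressed. In the lowest 25% by expression, 27.4% of genes passed and 70.6% of those changed at least 2-fold. In the highest 25%, 36.3% passed and 0.873% of those changed at least 2-fold.

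**Figure D2:**
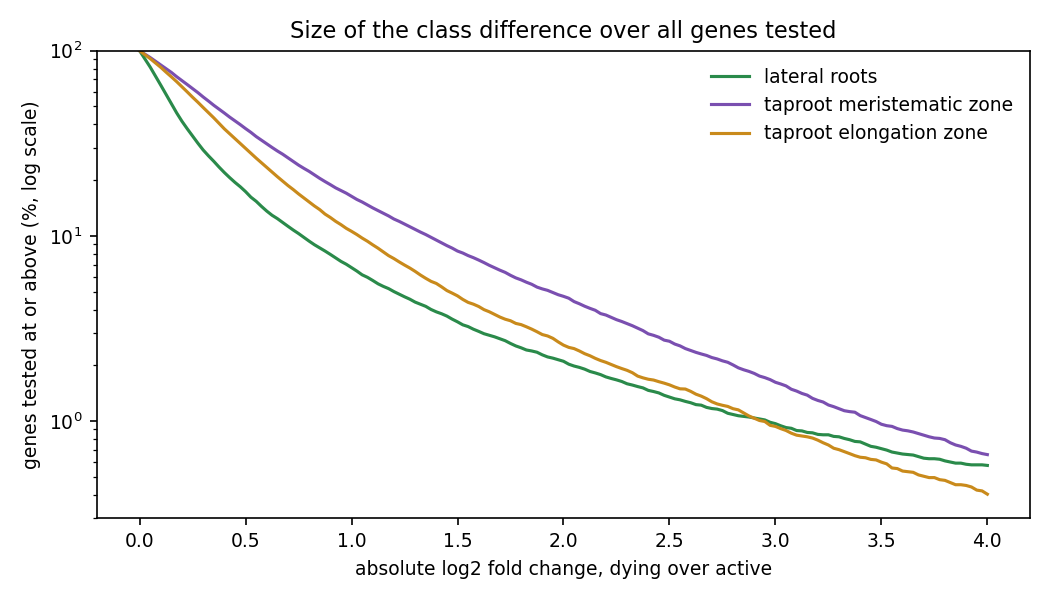
The horizontal axis is the absolute log2 fold change of dying over active, and the vertical axis is the percent of all genes tested at or above it, on a log scale, with 1 line per root part. The line of lateral roots lies lowest over most of the range, with a median of 0.16 against 0.36 in meristematic and 0.29 in elongation zones.

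The RT-qPCR genes and their reference genes carry names and are described next. The primer pairs of the 4 genes with the widest differences in lateral roots are shown, since they identify the transcripts beyond an assembly number. They are taken from the study's primer list and given from 5′ to 3′. No genome of the assembly's build was used here, so their positions were not analysed.
ACO5 (MSTRG.13653) forward: cggcaagttggagaatgtg
ACO5 reverse: gctggccactcgttattgtc
ACO1 (MSTRG.24659) forward: gtaagtaattccattttgacaatcca
ACO1 reverse: cctacactagaagtgagatccatcc
GST (MSTRG.31078) forward: tgaatctagggcaattacagca
GST reverse: gagatcagttccagtttccttga
GERL1 (MSTRG.23367) forward: ccaaccctcccattaatcct
GERL1 reverse: ctcttcaaccacatttttgtcg

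Of the 9 genes, 7 passed the test in lateral roots (3 higher and 4 lower), against 30.5% of all genes tested. The genes were chosen by the study on libraries of this series, so that the count is not independent evidence. Over all genes tested, the TPM values of dying and active lateral roots did not overlap in 40.6%, and this share stands as the background for each gene described as not overlapping. With the spread pooled over all 30 groups, none of the 7 passed, and each adjusted p of that fit stands beside the gene below. With near-identical libraries merged as well, no gene named here passed in lateral roots.

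Both RT-qPCR genes of the ethylene oxidase family changed, in opposite directions. *ACO5*, an aminocyclopropane carboxylate oxidase of the last step of ethylene synthesis, had 70.8, 71.6 and 69.6 TPM in dying lateral roots, against 146, 146 and 149 TPM in active ones. The groups lay far apart and the replicates of each nearly coincided. The change on the log2 scale was -1.11 ± 0.04 (SE, edgeR quasi-likelihood test, adjusted p = 6.31e-12; pooled spread, adjusted p = 0.256). *ACO1*, which the study named as another member of this family, had 106, 109 and 114 TPM in dying lateral roots, against 64.5, 69.3 and 69.8 TPM in active ones. All dying libraries were above all active ones, with a log2 fold change of 0.63 ± 0.05 (SE, edgeR, adjusted p = 8.62e-08; pooled spread, adjusted p = 0.107).

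In the taproot *ACO5* fell further and *ACO1* did not rise. *ACO5* averaged 4.98 ± 0.282 TPM in dying meristematic zones and 34.4 ± 2.23 TPM in active ones (SD, n = 3 each), a log2 fold change of -2.84. In elongation zones the averages were 2.06 ± 0.451 TPM in dying and 27.2 ± 1.09 TPM in active taproots (SD, n = 3 each), a log2 fold change of -3.84. *ACO1* had log2 fold changes of -0.14 in meristematic and -0.47 in elongation zones, and passed the test in both. Its values overlapped in meristematic zones, with 49.2 to 50.8 TPM in dying and 46.5 to 55.2 TPM in active taproots.

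The genes of auxin and gibberellin did not pass the test in lateral roots. *PIN2*, an auxin efflux carrier of the root tip, had 34.0, 32.9 and 29.3 TPM in dying lateral roots, against 34.3, 29.2 and 29.4 TPM in active ones. The values overlapped, and the log2 fold change was -0.0043 with a 95% interval of -0.11 to 0.11 (edgeR, adjusted p = 0.965). Its log2 fold change was -2.30 in meristematic zones and 0.79 in elongation zones, and *PIN2* passed in both. *G3OX*, the gibberellin 3-beta-dioxygenase, was near the limit of detection, with 0.840, 1.16 and 0.960 TPM in dying lateral roots and 0.980, 0.840 and 1.14 TPM in active ones. The log2 fold change was -0.059 with a 95% interval of -0.53 to 0.41, so that a change below that size was not detectable at this depth. In meristematic zones it averaged 0.347 ± 0.101 TPM in dying and 2.39 ± 0.210 TPM in active taproots (SD, n = 3 each), a log2 fold change of -2.82.

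*GST* and *GERL1* were lower in dying lateral roots. *GST*, a glutathione S-transferase of the detoxification and redox system, had 124, 120.0 and 111 TPM in dying lateral roots, against 188, 205 and 213 TPM in active ones. The log2 fold change was -0.83 ± 0.06 (SE, edgeR, adjusted p = 1.44e-08; pooled spread, adjusted p = 0.157). *GERL1*, a germin-like protein of the cell wall, had 21.8, 23.3 and 24.1 TPM in dying lateral roots, against 35.0, 37.7 and 37.0 TPM in active ones. This was a log2 fold change of -0.78 ± 0.08 (SE, edgeR, adjusted p = 5.72e-07; pooled spread, adjusted p = 0.510). Neither gene had overlapping values between the groups. *GERL1* went the other way in the taproot, with 1024 ± 22.1 TPM in dying and 212 ± 4.43 TPM in active meristematic zones (SD, n = 3 each). *GST* fell with a log2 fold change of -2.98 in meristematic zones and did not pass the test in elongation zones (-0.13).

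The remaining genes changed by less than 1.5-fold. *WRKY*, a transcription factor of a family known for stress and defence responses, had 6.91, 7.10 and 6.55 TPM in dying lateral roots, against 5.0, 5.07 and 4.92 TPM in active ones. The log2 fold change was 0.40 ± 0.09 (SE, edgeR, adjusted p = 0.00333; pooled spread, adjusted p = 0.541). *PCC13*, a desiccation-related protein, had 28.9, 30 and 29.3 TPM in dying lateral roots, against 22.7, 21.9 and 24.9 TPM in active ones. This was a log2 fold change of 0.26 ± 0.07 (SE, edgeR, adjusted p = 0.00875; pooled spread, adjusted p = 0.816). For both genes, all dying libraries were above all active ones. *CERD*, a neutral ceramidase of sphingolipid breakdown, had 94.3, 94.6 and 92.1 TPM in dying lateral roots, against 100.3, 97.3 and 101 TPM in active ones. Its log2 fold change was -0.14 ± 0.04 (SE, edgeR, adjusted p = 0.0109; pooled spread, adjusted p = 0.381). The call of *CERD* was lost without active replicate 3 (adjusted p = 0.0599), without TMM factors (0.0893) and with limma (0.109).

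Of the reference genes, *UBQ* (ubiquitin) averaged 139 ± 1.83 TPM in dying and 145 ± 3.69 TPM in active lateral roots (SD, n = 3 each). Its log2 fold change was -0.12 (edgeR, adjusted p = 0.0591), and it passed without active replicate 1 (-0.17, adjusted p = 0.000148). *EF* (elongation factor) averaged 2277 ± 105 TPM in dying and 2602 ± 11.5 TPM in active lateral roots (SD, n = 3 each), a log2 fold change of -0.25 (edgeR, adjusted p = 0.00211; pooled spread, adjusted p = 0.357). The change of *EF* was thus larger than that of *CERD* and about as large as that of *PCC13*.

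**Figure D3:**
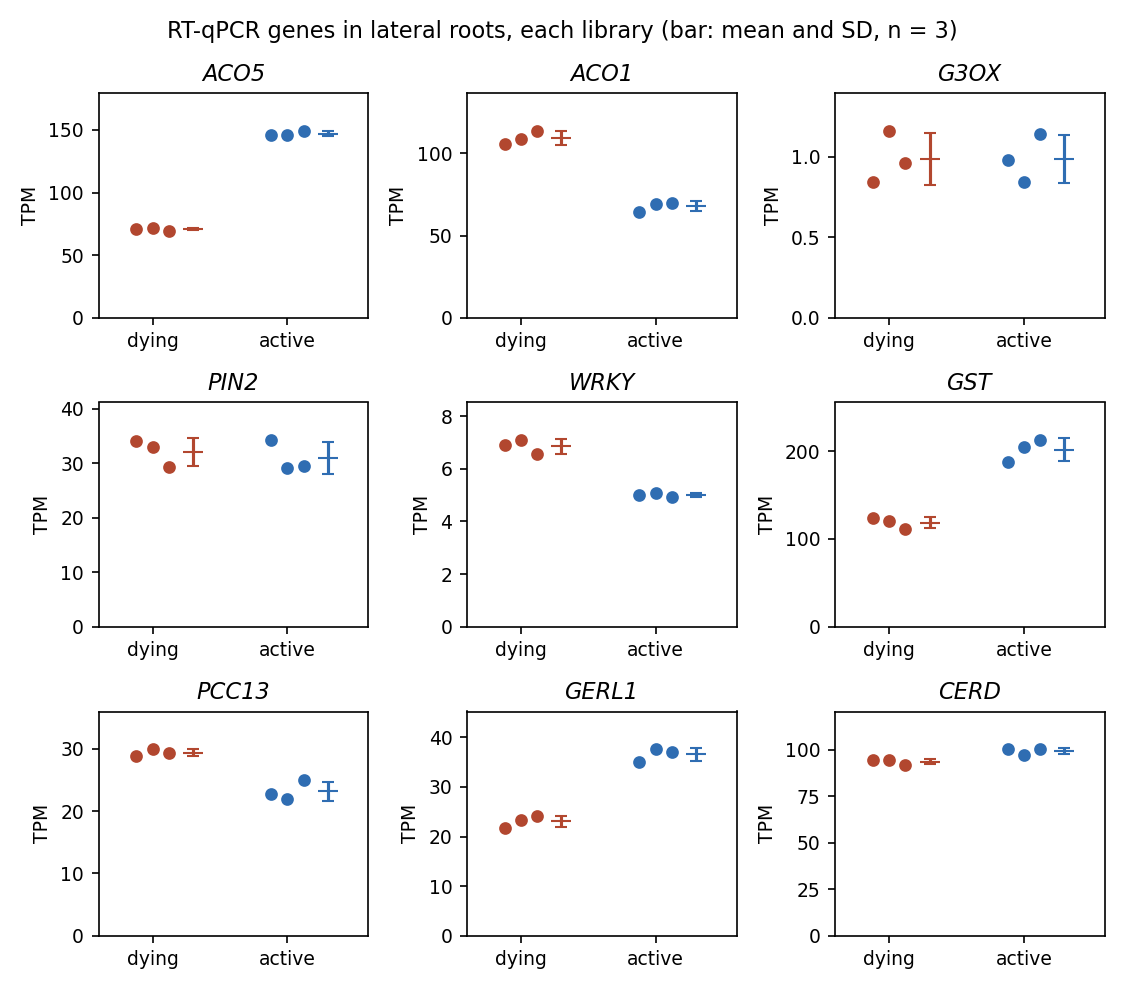
TPM (vertical axes, from 0) of the 9 RT-qPCR genes in each dying and active lateral root library, with the mean and SD (n = 3) beside the points. *ACO5*, *GST* and *GERL1* lie lower and *ACO1* and *WRKY* lie higher in dying lateral roots, whereas *G3OX* and *PIN2* overlap.

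In the main fits, the dying effect of all 9 genes differed between lateral roots and both taproot zones (edgeR interaction test, adjusted p under 0.05 in all 18 tests). Against elongation zones the value of *G3OX* is limited, since it had at most 11 counts in any library there. *CERD* was close to the threshold against elongation zones (edgeR, adjusted p = 0.0486). With the spread pooled over all 30 groups, 9 of the 18 passed, and none passed when near-identical libraries were also merged (edgeR, smallest adjusted p = 0.583). *ACO5* was the only one lower in dying roots of all 3 root parts with every test passed. *PCC13* rose in lateral roots and fell in both taproot zones, and *GERL1* fell in lateral roots and rose in both. *ACO1* rose in lateral roots and fell in elongation zones, whereas its small fall in meristematic zones came with overlapping values.

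**Figure D4:**
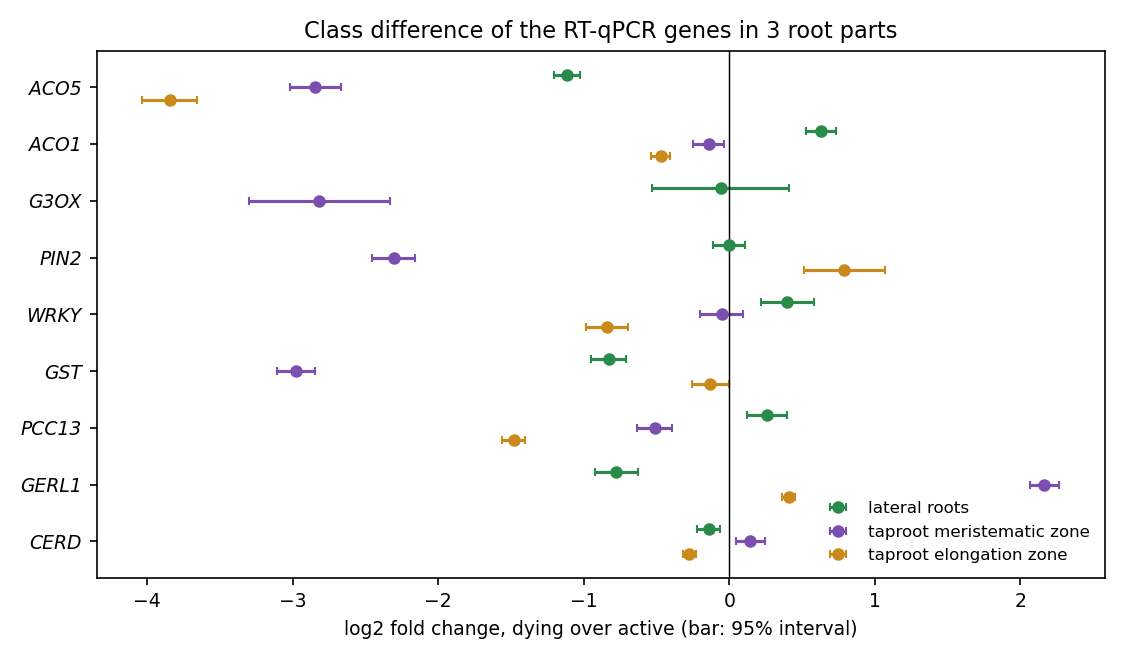
Log2 fold change of dying over active (horizontal axis, bars of the 95% interval) for the 9 RT-qPCR genes in lateral roots, meristematic zones and elongation zones. *G3OX* was too low to be tested in elongation zones, and *ACO5* lies well below 0 in all 3 root parts (-1.11, -2.84 and -3.84).

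Outside the named genes, 4 genes with no name in the files were taken, by the largest fold and the largest TPM difference in each direction. The rule required an adjusted p under 0.05 and TPM values that did not overlap, so that neither is a result about these genes. MSTRG.3889 was at 0 counts in all dying lateral roots, against 28.6, 32.2 and 27.6 TPM in active ones (99.95 to 101.6 counts). It was at least 34.9-fold lower in dying lateral roots, against a floor of 3 counts per library (edgeR, adjusted p = 1.92e-09). It was also at 0 in all dying meristematic and elongation zones, with 7.53, 10.8 and 7.49 TPM in active meristematic zones and 0.530 to 1.30 TPM in active elongation zones. In the 5 other lateral root groups of Dataset 2 it did not exceed 0.840 TPM.

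MSTRG.5125 was found at 17.6, 9.24 and 6.15 TPM in dying lateral roots (10.6 to 30.5 counts), against 0 in all active ones. It was at least 6.13-fold higher in dying lateral roots (edgeR, adjusted p = 7.62e-05; pooled spread, adjusted p = 0.0835), with a wide spread among the dying libraries. In meristematic zones it was at 0 except in active replicate 2 (3.11 TPM). It had 0.740 to 2.31 TPM in dying elongation zones, against 0 in active ones. Thick and dying transplanted lateral roots had 16.15 to 26.98 TPM, long transplanted ones had up to 8.12 TPM, and the remaining lateral root groups of Dataset 2 had 0. The abundant transcripts moved little. MSTRG.14200 had 6181, 6066 and 6589 TPM in dying lateral roots, against 4793, 5117 and 5146 TPM in active ones, a log2 fold change of 0.26. MSTRG.15114 had 11437, 11309 and 11647 TPM in dying lateral roots, against 12454, 12914 and 13072 TPM in active ones, a log2 fold change of -0.24. Neither of these passed with the pooled spread (adjusted p = 0.547 and 0.686).

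Genes present in 1 class only were few. With at most 3 counts in every library of a class and at least 50 in every library of the other, 10 genes were found only in dying and 13 only in active lateral roots. The counts were 4 and 6 in meristematic zones and 2 and 8 in elongation zones. Of the 13 genes found only in active lateral roots, 8 were also at 3 counts or fewer in dying meristematic zones, and 5 of these had at least 10 counts in active ones. Of the 10 found only in dying lateral roots, 4 were at 3 counts or fewer in active meristematic zones, and none of these had at least 10 counts in the dying ones. In elongation zones, 6 of the 13 were at 3 counts or fewer in dying taproots (2 of these with at least 10 counts in active ones), and 4 of the 10 were so in active taproots (2 with at least 10 counts in dying ones). In meristematic zones, 3 of the 13 and 3 of the 10 had at least 10 counts in both classes. In elongation zones, 5 of the 13 and 3 of the 10 did so. Of 35397 genes listed, 22331 had at least 10 counts in every dying meristematic library and 22442 in every active one. The share of all genes at 3 counts or fewer was not computed, so that no shared behaviour is read from these counts. Detected genes numbered 22889 in dying and 22405 in active lateral roots, with 21786 in both.

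The change in lateral roots was then set beside that in the taproot. In meristematic zones 14628 of 23839 genes passed (61.4%), and in elongation zones 14869 of 23847 (62.4%). At least 4-fold was reached by 1124 genes in meristematic and 613 in elongation zones, against 504 in lateral roots. At least 8-fold was reached by 386 and 223, against 232, so that the largest changes were not fewer in lateral roots than in elongation zones. Of lateral root genes that passed and were also tested in meristematic zones, 69.8% passed there, against 61.4% of all genes tested in both. In turn, 34.3% of the meristematic genes passed in lateral roots, against 6875 of all 22746 genes tested in both. Of the 4796 genes that passed in both, 66.6% changed in the same direction, against 58.4% of all genes tested in both. For elongation zones the shares were 70.3%, against 62.9% of all genes tested in both, and 33.7%, against 6920 of 22917 genes. The 4862 genes that passed in both changed in the same direction in 56.9%, against 52.9% of all genes tested in both. Between both taproot zones 75.7% of the shared genes went the same way, against 65.4% of all. Across all genes tested in both, the log2 fold changes of lateral roots had a Spearman's rho of 0.19 with those of meristematic zones (22746 genes) and of 0.11 with those of elongation zones (22917 genes). Genes within a library are not independent replicates, so that these values are descriptions.

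Of 22375 genes tested in all 3 root parts, 3626 passed in each. Of these, 869 were higher and 948 were lower in dying roots of every part, and the rest changed in mixed directions. A further 892 passed in lateral roots only. On their own, 22746 genes were tested in both lateral roots and meristematic zones, and 22917 in both lateral roots and elongation zones. The interaction fits also hold genes that entered through 1 root part, with few counts in the other. The dying effect differed between lateral roots and meristematic zones in 12238 of 25351 genes (48.3%), and between lateral roots and elongation zones in 11944 of 25190 genes (47.4%). With the spread pooled over all 30 groups these counts were 5005 and 3536, and with near-identical libraries merged they were 6 and 0 (2075 and 1059 at an unadjusted p under 0.05). Of 7298 genes that passed in lateral roots and entered both interaction tests, 3339 differed from both taproot zones and 1411 from neither in the main fits. The share of all genes that did so was not computed. Both tests hold the same lateral root libraries by which these genes were picked, so that nothing is read from these counts.

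Gene lists made from other libraries were then followed in lateral roots. Genes higher in lateral roots than in taproot meristems of Dataset 1 (at least 4-fold) were more often higher than lower in dying lateral roots. Of 1830 tested, 576 (31.5%) were higher and 242 (13.2%) were lower, against 15.8% and 14.7% of all genes, with a median log2 fold change of 0.13. Genes higher in taproot meristems went the other way. Of 613 tested, 81 (13.2%) were higher and 241 (39.3%) were lower, with a median of -0.20. The median over all genes tested was 0.0014. Among the 21528 genes in neither list, 3135 were higher and 3029 were lower.

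The same order was seen with the zones of the taproot in Dataset 2. Of 440 genes that were higher in elongation than in meristematic zones, 141 (32%) were higher and 48 (10.9%) were lower in dying lateral roots (median 0.16), against 15.8% and 14.7% of all genes. Of 635 genes that were higher in meristematic zones, 71 (11.2%) were higher and 210 (33.1%) were lower (median -0.15). The 20 taproot meristem genes given above were taken from the same comparison of root parts as the list of genes higher in taproot meristems. Both were read in the same lateral root libraries, so that the lower sum in dying lateral roots is no separate observation. The part of these 20 genes in the counts of either meristem list was not tested.

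Genes that changed at least 2-fold in dying taproots were followed into lateral roots. Of 1505 genes raised in dying meristematic zones, 423 (28.1%) were higher and 213 (14.2%) were lower (median 0.15), against 15.8% and 14.7% of all genes. Of 1790 genes lowered there, 294 (16.4%) were higher and 483 (27.0%) were lower (median -0.060, and -0.015 without TMM factors). Of 786 genes raised in dying elongation zones, 264 (33.6%) were higher and 93 (11.8%) were lower (median 0.24). Of 1358 lowered there, 258 (19.0%) were higher and 355 (26.1%) were lower, so that both shares were above those of all genes. The median of this list was -0.040, and its sign turned without TMM factors (0.0058). Most members of each list either did not pass or moved by less than 2-fold, as with 184 of the 1505 that were at least 2-fold higher. With edgeR, no list could be made from the long container taproots of the second harvest in Dataset 1. There edgeR called 0 of 22422 genes between dying and active meristematic zones, with 1079 at an unadjusted p under 0.05, and DESeq2 called 189. The dying and active long container taproots of the first harvest in Dataset 1 were not compared here.

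**Figure D5:**
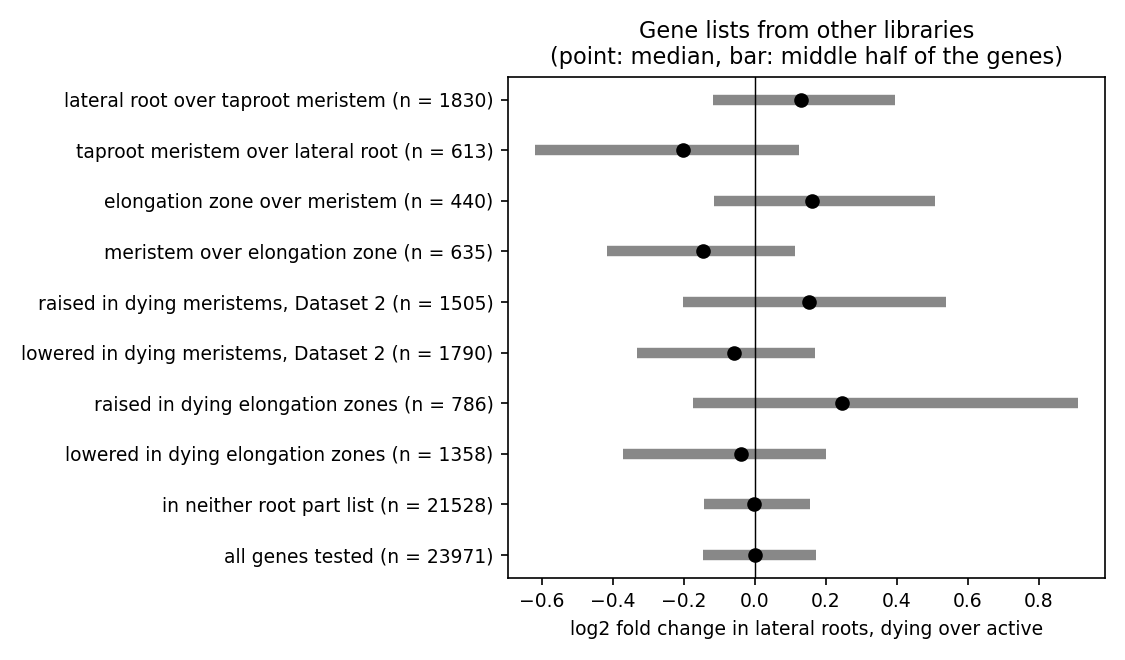
Log2 fold change of dying over active in lateral roots (horizontal axis) for gene lists made from other libraries, with the median as a point and the middle 50% of the genes as a bar. Medians run from -0.20 for taproot meristem genes to 0.24 for genes raised in dying elongation zones, against 0.0014 for all genes tested.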

How the data were processed

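RNA-seq of *Q. robur* roots (stranded mRNA libraries, paired reads) was used. Reads were trimmed, cleared of ribosomal RNA, mapped with STAR and assembled with StringTie by the authors. The authors used RSEM, run on Bowtie 2 alignments, to make the deposited expected counts, which are not normalized. The deposited TPM values come from the same estimates. Tool versions were not used here.

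Expected counts were rounded and tested with edgeR 4.0.16 in R 4.3.3 (filterByExpr with a minimum count of 10, TMM factors, quasi-likelihood test, Benjamini-Hochberg adjustment, threshold 0.05), with only the groups compared in each fit. Standard errors were taken from F and the fold change, and 95% intervals from a normal approximation to them. The study's methods name no test. Distances subtract counting variance. With 3 against 3 libraries, an exact permutation test of 1 value cannot go below 0.10, so distances are given without a test. The lateral root test and the interaction with meristematic zones were tested on simulated data.

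Groups were taken from the sample codes. The members and lists were chosen with earlier results of these data known. Names are given for *UBQ*, *EF* and the 9 RT-qPCR genes, and IDs for 2 unnamed genes in each direction (adjusted p under 0.05, at least 10 TPM, no overlap) with the largest fold and the largest TPM difference. The study's annotation of the other genes was not used here. Alternatives were no TMM, no filter, limma 3.58.1 on log2(TPM + 1), DESeq2 1.42.0, a mean count of at least 50, a 2-fold limit, a replicate block, all groups in 1 fit, merged near-identical libraries and the omission of each library. Figures were made with matplotlib 3.10.9.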

Additional observations from a re-analysis of the deposited data

Results flagged for a closer look

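The dying effect differed between lateral roots and the taproot zones by a test of the difference itself (edgeR interaction test, Benjamini-Hochberg adjustment). This held for 12238 of 25351 genes against meristematic zones and for 11944 of 25190 against elongation zones, some with few counts in 1 root part. With the spread pooled over all 30 groups of Dataset 2, it held for 5005 and 3536.

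Among the RT-qPCR genes, the differences are given as the log2 fold change of dying over active in lateral roots minus that in the taproot zone. Against meristematic zones, the difference was 1.69 for *ACO5*, 0.73 for *ACO1*, 2.72 for *G3OX*, 2.26 for *PIN2* and 0.41 for *WRKY*. It was 2.11 for *GST*, 0.73 for *PCC13*, -2.98 for *GERL1* and -0.33 for *CERD*. The standard errors were 0.06 (*CERD*) to 0.35 (*G3OX*), and the largest adjusted p was 0.0045 (*WRKY*). Against elongation zones, it was 2.71 for *ACO5*, 1.08 for *ACO1*, 2.20 for *G3OX*, -0.82 for *PIN2* and 1.23 for *WRKY*. It was -0.72 for *GST*, 1.72 for *PCC13*, -1.20 for *GERL1* and 0.11 for *CERD*. The standard errors were 0.05 (*CERD*) to 0.68 (*G3OX*), and *CERD* was close to the threshold (adjusted p = 0.0486). *G3OX* had at most 11 counts in any library of the elongation zones, which limits its value there. With near-identical libraries merged and all groups in 1 fit, none of these 18 differences passed (edgeR, smallest adjusted p = 0.583).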

How the results depend on the processing

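Counts of genes moved most with the spread used. With a 2-fold limit, all groups in 1 fit, and merged libraries in that fit, the counts were 1557, 1022 and 1 in lateral roots, and 3878, 9370 and 681 in meristematic zones. They were 2514, 6340 and 0 in elongation zones, 4243, 5005 and 6 for lateral roots minus meristematic zones, and 3199, 3536 and 0 for lateral roots minus elongation zones. The merged fit rests on 54 units with 24 residual degrees of freedom, and a lone unit is assumed to vary like the other groups. Unadjusted p was under 0.05 in it for 708, 4299, 1684, 2075 and 1059 genes in this order. The other settings kept the lateral count within 1.5 times of 7304 (5878 to 7544). Leaving out 1 library gave 5605 to 9021. The number of a replicate did not pair libraries (correlation of deviations -0.05 to 0.03 in lateral roots), and a replicate block gave 7491 calls, with *UBQ* in lateral roots among them (adjusted p = 0.0398, edgeR).

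The ratio of distances was 2.12 with the median absolute log2 ratio and 2.17 to 3.70 with 1 library left out. Without TMM factors the list medians, in the order of the report, were 0.17, -0.16, 0.20, -0.10, 0.20, -0.015, 0.29 and 0.0058, the last with its sign turned. Another fold limit gave -0.12 (taproot meristem), 0.12 (elongation zone), -0.12 (lowered in meristematic zones), 0.44 (raised in elongation zones) and -0.078 (lowered there). The median of genes raised in elongation zones was 0.22 to 0.28 with 1 library left out. Estimates near 0 turned sign for *PIN2* (0.050 with limma, 0.040 without TMM, 0.0010 with all groups, -0.048 to 0.044 with 1 library left out), for *G3OX* (-0.19 to 0.065 with 1 left out) and for *WRKY* in meristematic zones (0.0036 with limma, against -0.051). Among the genes named, over all comparisons, 121 calls were lost in other settings and 14 with 1 library left out, and 3 were gained in each. The cause of these moves was not tested. Depth limits the weakly expressed genes, above all *G3OX* with 24 to 37 counts per lateral root library.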

Other observations

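The RT-qPCR genes also varied among the other lateral root groups of Dataset 2, which were not part of the comparison. *ACO5*, at 70.7 ± 1.01 TPM in dying and 147 ± 1.90 TPM in active lateral roots, was at 82.0 ± 2.57 TPM in long rhizotron lateral roots and at 1.88 ± 0.276 TPM in lateral roots of thick and dying transplanted seedlings (SD, n = 3 each). *GST*, at 119 ± 6.55 TPM in dying and 202 ± 12.9 TPM in active lateral roots, was at 63.7 ± 3.62 TPM in long rhizotron lateral roots and at 11.8 ± 0.873 TPM in the thick and dying ones. *GERL1*, at 23.0 ± 1.15 TPM in dying and 36.6 ± 1.38 TPM in active lateral roots, was at 117 ± 2.37 TPM in the thick and dying ones. *PCC13* was at 29.4 ± 0.544 TPM in dying and 23.2 ± 1.57 TPM in active lateral roots, against 60.9 ± 0.743 TPM in long rhizotron lateral roots. In medium container lateral roots, *ACO5* ran from 53.9 to 132 TPM and *GST* from 29.8 to 151 TPM between replicates of the same group.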
